A study of Homo sapiens with 18 samples.

Results

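Interferon-stimulated genes are the genes that cells switch on when interferon or intracellular foreign nucleic acid is sensed. Their transcripts were followed here in 18 RNA-seq libraries of bladder cancer cells with and without knockdown of ACAT1, a mitochondrial acetyl-CoA acetyltransferase. The group was taken as a list of 44 gene symbols, and all 44 were found among the 39496 genes counted. Of these, 43 were among the 20144 genes that passed the filter on low counts and were tested, and CMPK2 did not pass it. UM-UC-3 and T24, both established human bladder cancer cell lines labelled as transitional cell cancer cells, received by transfection either siNC, the negative control siRNA, or an siRNA that targets ACAT1, of which there were 2, siACAT1-1 and siACAT1-2. Each of these 6 groups held 3 libraries, numbered as biological replicates 1 to 3, and the genotype label is WT for siNC and ACAT1 knockdown for both other groups of a cell line. An untransfected group was not analysed here, and an siRNA knocks the transcript down without removing the gene.

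Type I interferons bind a receptor built from IFNAR1 and IFNAR2, whose kinases JAK1 and TYK2 phosphorylate STAT proteins, STAT2 among them. With IRF9 these form the complex ISGF3, which enters the nucleus and binds the interferon-stimulated response element, a pair of GAAA (or TTTC) repeats that lie close to the start of many genes of the group. The products bind viral RNA (the OAS and IFIT families), restrict viral entry or release (IFITM proteins, BST2), block incoming capsids and polymerases (MX GTPases), tag proteins with the ubiquitin-like ISG15, or amplify the response (STAT2, IRF7, IRF9). Many tumour cell lines keep part of this programme on without added interferon.

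The letters of the response element were searched for in the reference sequence of the promoters. These (250 bases before to 50 bases after the annotated start, RefSeq, GRCh38.p14) were at hand for 37 of the 44 genes, and IRF7, OAS2, OASL, IFIT2, IFITM2, MX2 and USP18 had no entry. The letters TTTC, any 2 bases and TTTC, or GAAA, any 2 bases and GAAA on the other strand, occurred in 24 of the 37 (64.9%), against 4.38% of the 27305 genes with a promoter entry. A match describes the letters and not a bound site. Matches overlapping each other were counted separately. The windows below show examples with a match among the genes that rose in the model described further on, together with BST2, which differed most between the cell lines. The matches are in capitals, and each sequence is written 5′ to 3′ along the gene's strand.
IFIT3 (chr10:89327826-89327899, plus strand): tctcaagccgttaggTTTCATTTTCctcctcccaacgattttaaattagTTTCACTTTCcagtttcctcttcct
IFIT1 (chr10:89392492-89392544, plus strand): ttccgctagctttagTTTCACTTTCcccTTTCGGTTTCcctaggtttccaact
ISG15 (chr1:1013369-1013414, plus strand): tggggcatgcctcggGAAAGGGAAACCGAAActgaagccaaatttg
IFI6 (chr1:27672283-27672363, minus strand): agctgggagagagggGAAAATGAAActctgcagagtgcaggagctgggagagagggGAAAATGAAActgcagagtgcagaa
IFI27 (chr14:94110613-94110665, plus strand): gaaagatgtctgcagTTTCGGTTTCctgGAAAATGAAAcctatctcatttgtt
DDX60 (chr4:168318781-168318855, minus strand): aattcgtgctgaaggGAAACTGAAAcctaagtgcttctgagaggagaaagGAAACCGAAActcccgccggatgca
IFITM3 (chr11:320871-320927, minus strand): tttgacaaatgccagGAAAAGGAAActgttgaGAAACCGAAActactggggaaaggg
SAMD9 (chr7:93118091-93118130, minus strand): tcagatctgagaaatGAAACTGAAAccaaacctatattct
LGALS3BP (chr17:78979957-78979996, minus strand): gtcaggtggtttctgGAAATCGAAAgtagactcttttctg
BST2 (chr19:17405730-17405775, minus strand): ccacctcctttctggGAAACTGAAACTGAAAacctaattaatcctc

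IFIT3 carried its pair of matches at -156 and -122 from the start of the gene, and IFIT1, the neighbouring gene on chromosome 10, carried its pair at -116 and -103. In ISG15 (-113 and -107) and BST2 (-130 and -124) the matches overlapped, so that 3 repeats stood in a row. IFI6 held 3 matches, of which those at -156 and -115 lay in a repeated stretch of the promoter and are shown. PARP9 and DTX3L, which face away from each other on chromosome 3, shared 137 bases of promoter (chr3:122564251-122564387) with the same match on opposite strands:
PARP9 (chr3:122564317-122564356, minus strand): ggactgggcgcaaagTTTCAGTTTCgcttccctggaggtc
DTX3L (chr3:122564317-122564356, plus strand): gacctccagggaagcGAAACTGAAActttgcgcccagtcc
No match lay in these windows for STAT2, IRF1, IRF9, OAS1, UBE2L6, HERC6, IFI35, CMPK2, SAMD9L, SP100, SP110, XAF1 or TDRD7, which says only that these letters are absent there. Of the 24 members that rose under ACAT1 knockdown in at least 1 comparison with the replicate number as a block (below), 14 of 22 with an entry held a match, and of the others 10 of 15 did.

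The libraries held between 25163490 and 34417230 counted reads. ACAT1 itself was lower in every knockdown library: its level per gene length was 47.4, 46.5 and 44.1 RPKM (reads scaled to gene length and to the counted reads of the library) with siNC in UM-UC-3 and 16.8, 14.6 and 17.1 in T24, and in knockdown libraries it lay between 1.83 and 3.59 RPKM in UM-UC-3 and between 0.671 and 1.46 in T24. The simple-epithelial keratins KRT7, KRT8 and KRT18 were at or above 1 RPKM in all groups, while FOXA1 and PPARG passed that level only in T24 groups and the uroplakins in none. With the replicate block (below), KRT8 and KRT18 fell in UM-UC-3 with siACAT1-1 (log2 fold changes -0.46 and -0.48, adjusted p = 0.0196 and 0.0202) and siACAT1-2 (-0.48 and -0.44, 0.0196 and 0.0449), calls not made without it. No marker of endothelial cells had a group mean of 1 RPKM, and of 9 immune markers only CD68 did, in every group. CD68 rose with siACAT1-2 in T24 with the block (1.05 ± 0.14, 0.00012, without the block 0.904). Of 6 fibroblast markers COL1A1 had a mean above 1 RPKM in all groups and COL3A1 in those of UM-UC-3, while DCN and LUM did not exceed 0.0433 and 0.147 RPKM in any library. The part of these markers in the results was not tested. T24 replicate 2 stood apart from the other T24 replicates with all 3 siRNAs: CD68, a lysosomal glycoprotein, was at 121, 154 and 169 RPKM there and between 15.7 and 41.5 RPKM in replicates 1 and 3. In UM-UC-3, siNC replicate 3 lay above the other control libraries for the interferon-stimulated genes, with a median deviation of the members from their mean in the cell line of 0.009 on the log2 scale, against -0.285 and -0.313. Counts of called members are given with and without these replicate numbers.

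**Figure D1:**
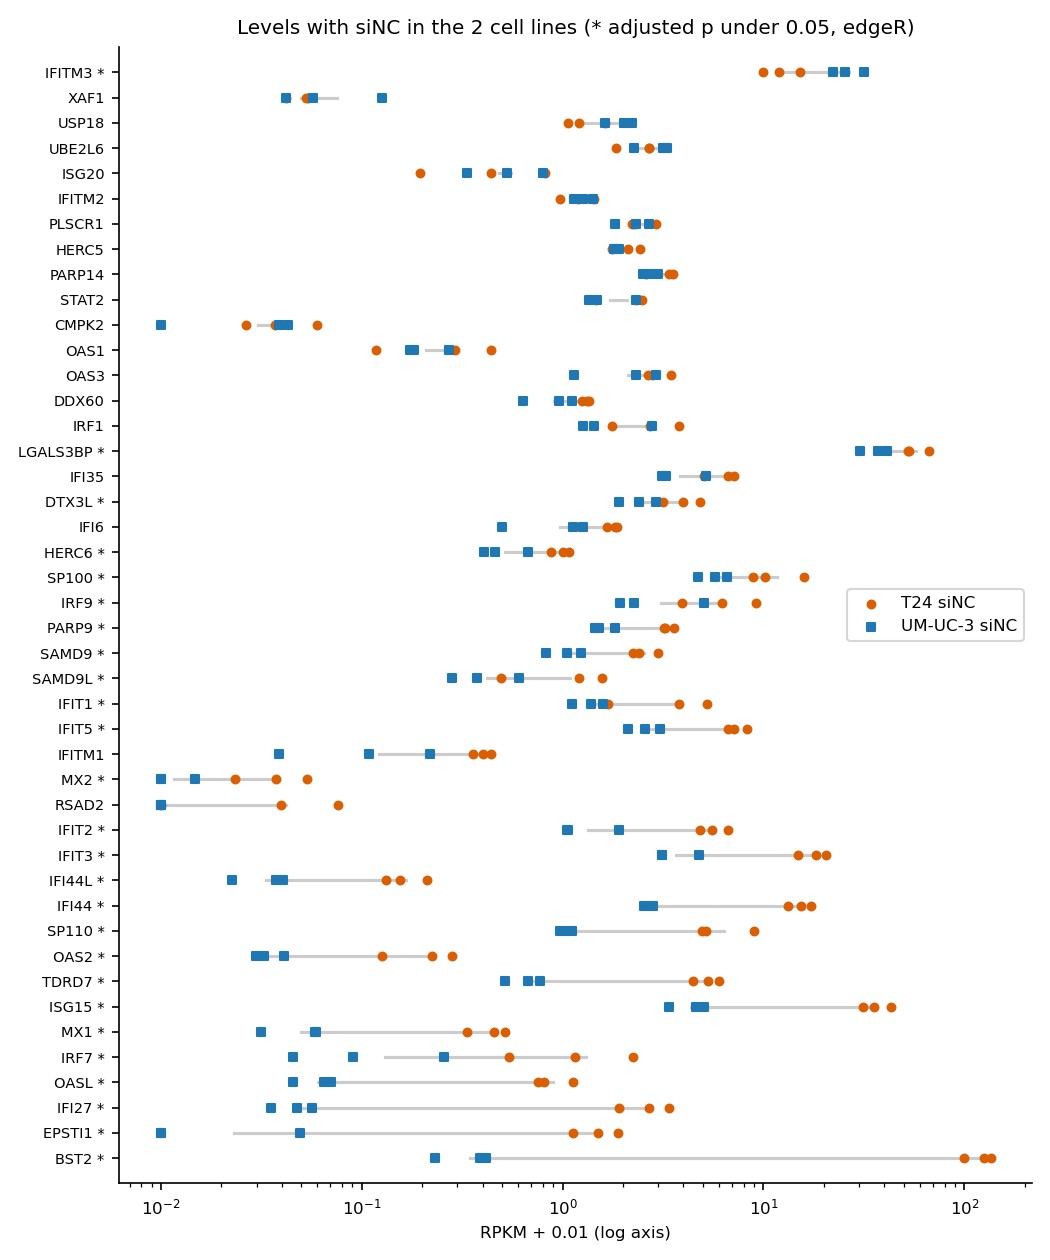
Level of each interferon-stimulated gene in the siNC libraries of UM-UC-3 and T24, in RPKM with 0.01 added, on a log axis. Each point is 1 library (3 per cell line) and a star marks an adjusted p under 0.05 between the cell lines. BST2, EPSTI1 and IFI27 show the widest gaps, and IFITM3 is the starred gene with the higher level in UM-UC-3.

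With siNC, the cell lines carried different amounts of the programme. The summed level of the 44 genes was 121.0 ± 15.59 RPKM (SD, n = 3) in UM-UC-3 and 356.0 ± 16.7 RPKM in T24. Much of the T24 sum came from BST2, the highest member there, whose levels are given below. By the quasi-likelihood test of edgeR, adjusted over all genes tested after Benjamini and Hochberg, 25 members were lower and 1 was higher in UM-UC-3 than in T24, with a median log2 difference of -1.02 over the 43 members tested against 0.03 over all genes. The count of 26 of 43 stands beside a background in which 44.3% of all genes differed between these cell lines, in either direction.

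BST2, also called tetherin, a membrane protein that holds budding virions on the cell surface, had 0.38, 0.223 and 0.405 RPKM in UM-UC-3 and 135, 100 and 126 RPKM in T24, where it was the highest member. The cell lines did not overlap, and the log2 difference was -8.44 ± 0.49 (SE, adjusted p = 1.3e-09). EPSTI1, an interferon-induced gene of epithelial and stromal cells, was at 0 RPKM in 2 UM-UC-3 control libraries and at 0.0394 in the third, against 1.49, 1.12 and 1.88 RPKM in T24. IFI27, whose product sits in mitochondrial and nuclear membranes, was at 0.0256, 0.0376 and 0.0468 RPKM in UM-UC-3 and 1.89, 3.36 and 2.67 RPKM in T24 (log2 difference -6.07 ± 0.55, adjusted p = 1.8e-07). Of the other called members, OASL, MX1, IRF7 and ISG15 had log2 differences of -4.07, -3.35, -3.35 and -3.03. MX2 was also called lower in UM-UC-3 (adjusted p = 0.0347), but its counts there were 0, 2 and 0 against 6, 16 and 10 in T24, so no fold is given. RSAD2, with counts of 0, 0 and 0 against 0, 9 and 4, was not called (0.0525).

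IFITM3, which blocks fusion of viruses with endosomes, went the other way. Its levels were 22.2, 25.5 and 31.8 RPKM in UM-UC-3 and 12, 9.9 and 15.2 RPKM in T24, without overlap, and the log2 difference was 1.14 ± 0.40 (adjusted p = 0.0278). An antisense gene covers 21.29% of its exon length, and the strand setting of the counting is not given. LGALS3BP, a secreted glycoprotein that binds galectins, was the highest member in UM-UC-3, with 37.1, 30.3 and 41.4 RPKM. SP100, a protein of nuclear bodies, with 4.70 to 6.55 RPKM, ISG15 and IFI35 came next after IFITM3. Members that did not differ beyond the spread included STAT2 (log2 difference -0.23 ± 0.25), HERC5 (-0.15 ± 0.20), PLSCR1 (-0.077 ± 0.20) and DDX60 (-0.50 ± 0.24, adjusted p = 0.107).

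ACAT1 knockdown was then compared with siNC, for each siRNA in each cell line. Both siRNA groups of a cell line share its siNC libraries, so the 2 comparisons within a cell line are not independent of each other. In bulk RNA, a change in some cells cannot be told apart from a smaller change in all cells. Libraries with the same replicate number deviated together within each cell line, and each result is therefore given by the model without the replicate number and by the same model with the number as a block.

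**Figure D2:**
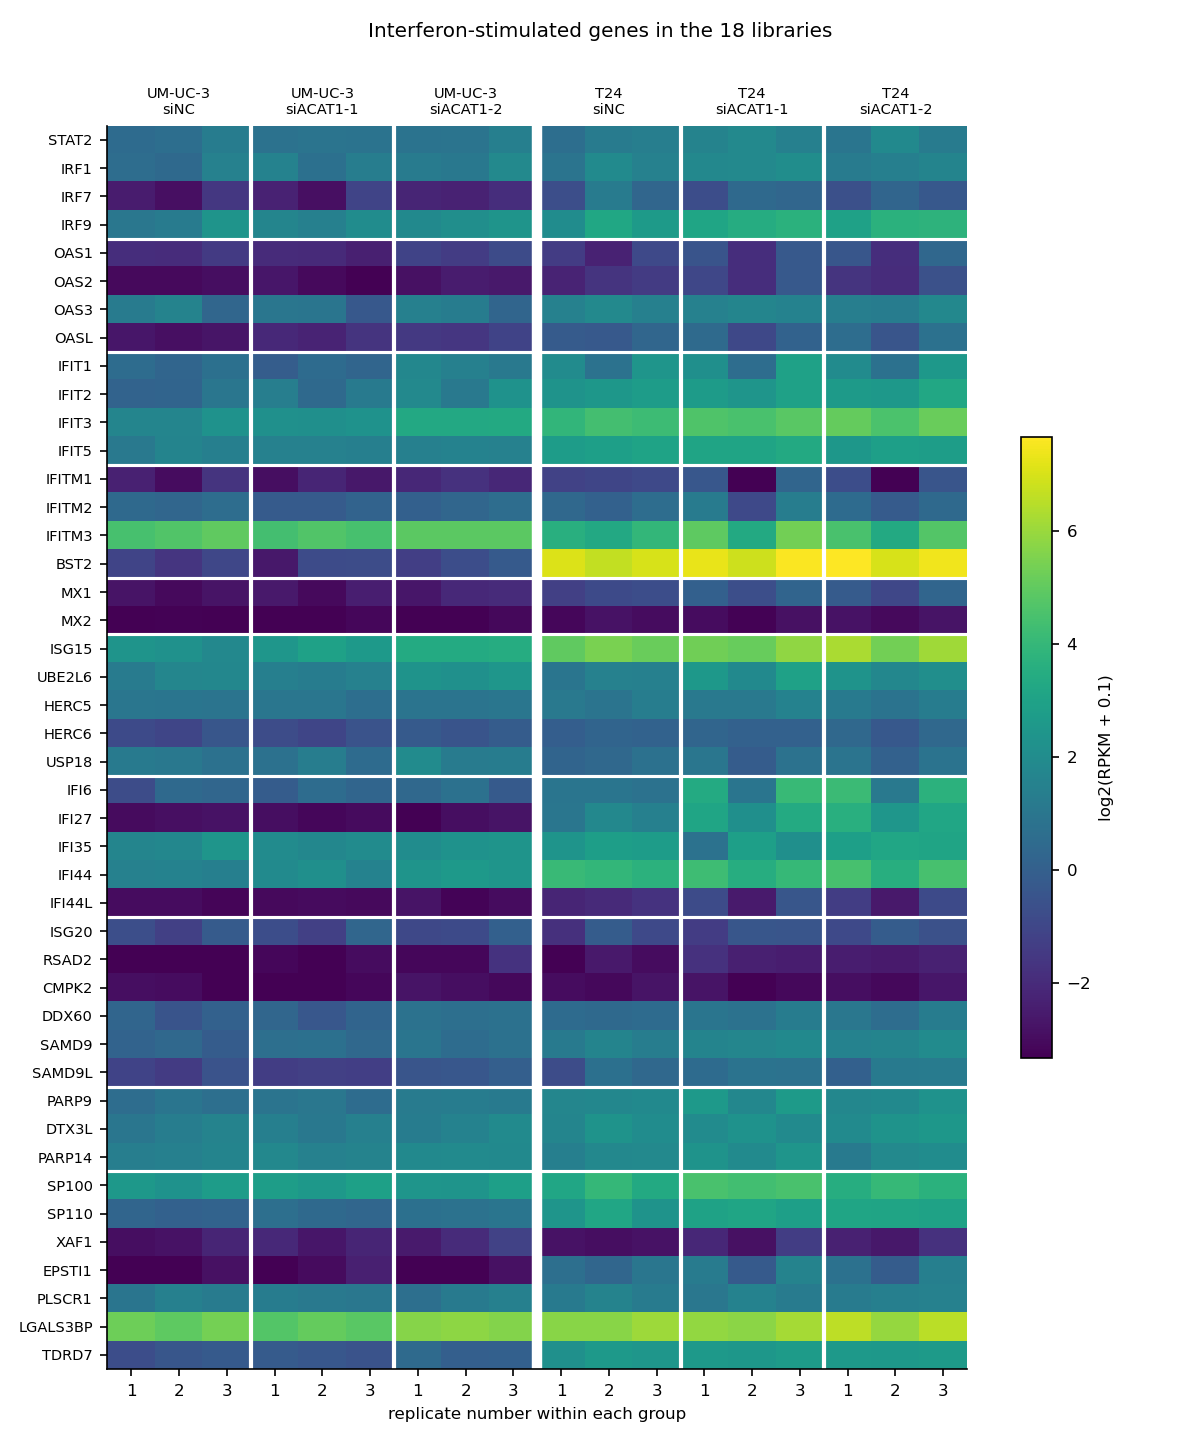
Heat map of the level of each member, as log2(RPKM + 0.1), in the 18 libraries, ordered by cell line, siRNA and replicate, with members grouped by role. In T24, the siACAT1-1 and siACAT1-2 libraries of replicate 2 look more like siNC than those of replicates 1 and 3 for IFI6, IFITM3 and MX1.

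Without the block, IFIT3 alone rose. It was called in UM-UC-3 with siACAT1-2 and in the mean of the 4 comparisons, and 0 members were called for siACAT1-1 in UM-UC-3 or for either siRNA in T24. Few genes of any kind were called by that model, in UM-UC-3 0.00993% of genes for siACAT1-1 and 0.0546% for siACAT1-2, 0.124% and 0.268% in T24, and 0.223% in the mean. The next lowest adjusted p values among members were 0.0645, for SP100 and UBE2L6 with siACAT1-1 in T24, and 0.074, for IFI27 with siACAT1-2 in T24. At an unadjusted p under 0.05, 2 and 16 members passed in UM-UC-3 for siACAT1-1 and siACAT1-2, and 13 and 12 in T24. DESeq2 called 4 members with siACAT1-2 in UM-UC-3, 4 and 3 in T24 with siACAT1-1 and siACAT1-2, and 7 in the mean. For the unadjusted counts and those of DESeq2 the share of all genes is not given, so they cannot be set against a background.

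With the replicate block, 1 member rose with siACAT1-1 in UM-UC-3, where 1.96% of all genes tested rose. With siACAT1-2 in UM-UC-3, 8 of 43 members rose, against 0.635% of all genes. In T24, 15 members rose with siACAT1-1, where 6.59% of all genes rose, and 10 with siACAT1-2, where 4.55% did. In the mean of the 4 comparisons 20 members rose, against 5.95% of all genes, and 0 members fell in any of these comparisons, by either model. Of these blocked calls and those between the siRNAs described later, 68 in all, 20 remained in each of 18 fits that left out 1 library. The libraries that ended most of them were T24 siNC replicates 3 (32 calls) and 1 (28 calls).

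As a description of the list, the median log2 fold change of the 43 members without the block in UM-UC-3 was 0.08 for siACAT1-1 and 0.48 for siACAT1-2, and in T24 it was 0.41 and 0.38, while the medians of all genes lay between -0.01 and 0.01. Above 0 were 26, 37, 38 and 37 members in that order, against 47.8% to 51.3% of all genes. With the block the medians were 0.09, 0.51, 0.36 and 0.41. In UM-UC-3 the summed level of the group was 115.6 ± 4.53 RPKM (SD, n = 3) for siACAT1-1 and 170.3 ± 3.84 for siACAT1-2, and 466.7 ± 105.32 and 509.4 ± 105.26 in T24. The larger SDs in T24 came with replicate 2, whose sums were 362.0 and 388.3 RPKM, against 465.4 to 579.2 RPKM in replicates 1 and 3.

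**Figure D3:**
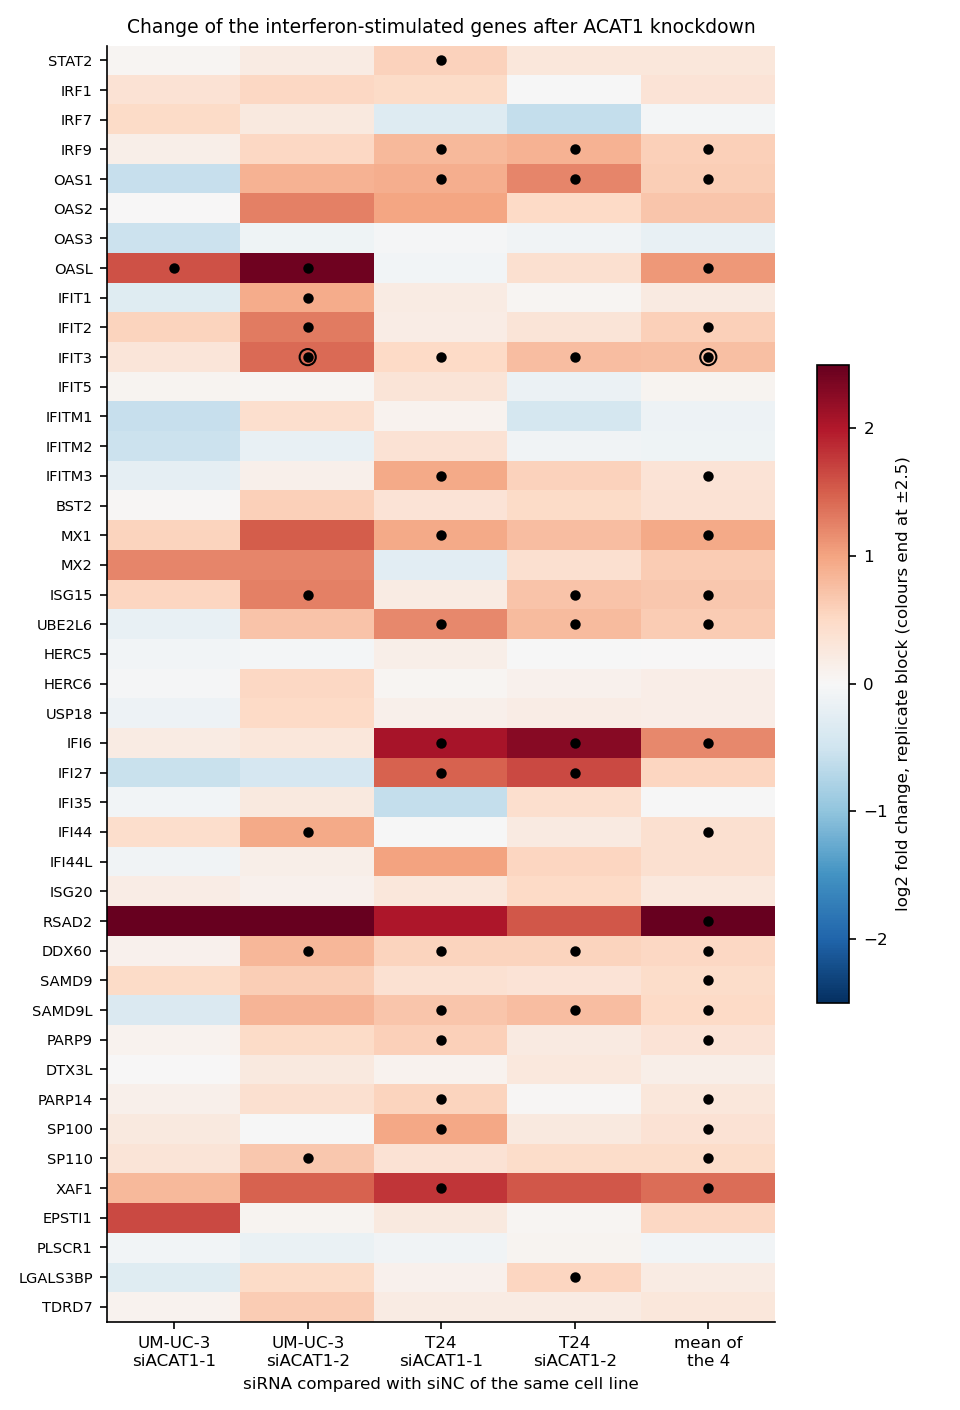
Log2 fold change of each member against siNC in the 4 comparisons and their mean, from the model with the replicate block, with colours ending at ±2.5. A dot marks an adjusted p under 0.05 with the block, and a ring marks that the member was also called without it, which holds for IFIT3 with siACAT1-2 in UM-UC-3 and in the mean.

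The IFIT family, tetratricopeptide-repeat proteins that bind the 5′ ends of viral RNA, held the only member called against siNC without the block. IFIT3, which stabilises the IFIT1 complex, was at 3.11, 3.13 and 4.78 RPKM with siNC, 4.43, 4.34 and 4.76 with siACAT1-1 and 9.93, 9.83 and 10.1 with siACAT1-2 in UM-UC-3. The siACAT1-2 libraries lay above all others of the cell line, and siACAT1-1 overlapped siNC. In T24 its levels were 14.9, 20.4 and 18.2 RPKM with siNC, 25.0, 22.4 and 28.4 with siACAT1-1 and 32.9, 23.1 and 35.5 with siACAT1-2. There each knockdown library lay above each control library, and replicate 2 was the lowest of each knockdown group.

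IFIT3 rose 2.64-fold with siACAT1-2 in UM-UC-3 (log2 fold change 1.40 ± 0.20, adjusted p = 0.00938 by edgeR without the block, and 1.42 ± 0.16, 4.8e-05, with it). Over the 4 comparisons the mean log2 fold change was 0.76 ± 0.12 (adjusted p = 0.0182, with the block 6.7e-05). In T24 it rose only with the block, by 0.50 ± 0.15 with siACAT1-1 (adjusted p = 0.0302, without the block 0.292) and by 0.78 ± 0.15 with siACAT1-2 (0.0029, without the block 0.122). With siACAT1-1 in UM-UC-3 the blocked value was 0.31 ± 0.16 (adjusted p = 0.319). The call without the block in UM-UC-3 was lost without siNC replicate 1 (adjusted p = 0.142) or 2 (0.119) and without siACAT1-2 replicate 1 (0.0937), 2 (0.0681) or 3 (0.0724), and that of the mean without UM-UC-3 siNC replicate 1 (0.0992) or 2 (0.06) or T24 siNC replicate 1 (0.0934) or 3 (0.0776). With the block both held in each of the 18 fits, while siACAT1-2 in T24 was lost without siNC replicate 1 (0.0574) or 3 (0.0544), and siACAT1-1 in T24 without siNC replicate 1 (0.242) or 3 (0.24) or siACAT1-1 replicate 1 (0.13) or 3 (0.138).

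IFIT2, which neighbours IFIT3 in the cluster on chromosome 10, was at 1.04, 1.05 and 1.89 RPKM with siNC in UM-UC-3, at 2.46, 1.25 and 2.19 with siACAT1-1 and at 3.5, 2.09 and 4.74 with siACAT1-2. In each replicate number the siACAT1-2 library was above its siNC library, and these groups did not overlap. The log2 fold change with siACAT1-2 was 1.30 ± 0.17 (adjusted p = 0.00022 with the block, 0.356 without it), and the mean of the 4 comparisons was 0.59 ± 0.10 (0.00078 with the block, 0.256 without). Both blocked calls held in each of the 18 fits that left out a library. In T24 IFIT2 lay between 4.83 and 6.64 RPKM with siNC and between 5.26 and 9.47 RPKM under knockdown, with overlap, and was not called.

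IFIT1, which binds viral RNA at its 5′ end, had 1.37, 1.11 and 1.58 RPKM with siNC and 3.27, 2.68 and 2.06 with siACAT1-2 in UM-UC-3. It rose there with the block (log2 fold change 0.93 ± 0.20, adjusted p = 0.0211, without the block 1). That call was lost without siNC replicate 1 (0.119) or 2 (0.209) and without siACAT1-2 replicate 1 (0.222) or 2 (0.101). In T24 its replicates spread more widely than the groups did, from 1.68 to 5.2 RPKM with siNC and from 1.43 to 7.58 under knockdown, with replicate 2 lowest in each group. IFIT5 was not called against siNC and lay between 2.1 and 3.03 RPKM in UM-UC-3 and between 5.55 and 10.2 RPKM in T24.

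Of the factors that carry the interferon signal, IRF9, the DNA-binding part of ISGF3, rose in T24 with the block. Its level was 3.92, 9.17 and 6.18 RPKM with siNC, 8.64, 10.9 and 12.8 with siACAT1-1 and 7.69, 12.9 and 13.5 with siACAT1-2. The groups overlap because replicate 2 was high with siNC, but within each replicate number both knockdown libraries were above siNC. The log2 fold change was 0.81 ± 0.17 with siACAT1-1 (adjusted p = 0.00429 with the block, 0.362 without) and 0.87 ± 0.17 with siACAT1-2 (0.00382 and 0.431). The siACAT1-1 call was lost without siNC replicate 1 (0.0505) or 3 (0.0723) or siACAT1-1 replicate 1 (0.0618), and the siACAT1-2 call without siNC replicate 3 (0.0677). In UM-UC-3 IRF9 was at 1.92, 2.27 and 5.04 RPKM with siNC, 3.1, 2.62 and 4.0 with siACAT1-1 and 3.56, 4.18 and 5.08 with siACAT1-2, which overlapped and were not called. The mean of the 4 comparisons was 0.59 ± 0.11 (0.00182 with the block, 0.346 without) and held in each fit that left out a library. Another gene annotated on the same strand covers 48.44% of the exon length of IRF9, so part of its reads may belong to that gene.

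STAT2, the ISGF3 subunit that IRF9 binds, was at 1.46, 2.3 and 2.49 RPKM with siNC and 2.91, 3.5 and 2.67 with siACAT1-1 in T24, without overlap. It rose with the block (log2 fold change 0.57 ± 0.17, adjusted p = 0.0283, without the block 0.386), a call lost without siNC replicate 1 (0.197) or 2 (0.133) or siACAT1-1 replicate 1 (0.282). With siACAT1-2 in T24, and in UM-UC-3, STAT2 was not called. IRF1, a faster-acting factor that interferon gamma induces, and IRF7, which amplifies type I interferon production, were not called in any knockdown comparison. IRF7 was at 0.531, 2.24 and 1.14 RPKM with siNC in T24 and between 0.506 and 1.24 under knockdown, and stayed at or under 0.37 RPKM in UM-UC-3.

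The OAS enzymes sense double-stranded RNA and make 2-5A, a second messenger, while OASL is a relative without that activity that acts on RIG-I. OASL was scarce in UM-UC-3, at 0.0604, 0.0354 and 0.0552 RPKM with siNC (6, 4 and 6 counts), 0.141, 0.111 and 0.21 with siACAT1-1 and 0.259, 0.238 and 0.359 with siACAT1-2. The groups did not overlap, and the siRNAs were ordered the same way in each replicate number. OASL rose with siACAT1-2 (log2 fold change 2.44 ± 0.39, adjusted p = 0.00245 with the block, 0.197 without), a call that held in each fit that left out a library. With siACAT1-1 it was 1.59 ± 0.43 (0.0475 with the block, 0.876 without), kept in only 5 of 18 such fits, with the highest adjusted p of 0.332 without siNC replicate 3. In T24 OASL was at 0.801, 0.747 and 1.12 RPKM with siNC, 1.28, 0.415 and 1.01 with siACAT1-1 and 1.44, 0.646 and 1.59 with siACAT1-2, with replicate 2 below its own control for both siRNAs, and it was not called. The knockdown effect in UM-UC-3 minus that in T24 was 1.85 ± 0.43 on the log2 scale with the block (adjusted p = 0.112) and was not called.

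OAS1 was at 0.282, 0.108 and 0.433 RPKM with siNC in T24, 0.612, 0.174 and 0.739 with siACAT1-1 and 0.675, 0.172 and 1.16 with siACAT1-2. Each knockdown library was above the siNC library of its number, although replicate 2 was low throughout. It rose with the block for siACAT1-1 (log2 fold change 0.90 ± 0.27, adjusted p = 0.0314, without the block 0.614) and siACAT1-2 (1.23 ± 0.27, 0.00657, without the block 0.568). The siACAT1-2 call was lost without siNC replicate 1 (0.0728) or 3 (0.0826) or siACAT1-2 replicate 3 (0.0974), and the siACAT1-1 call without siNC replicate 1 (0.171) or 3 (0.192) or siACAT1-1 replicate 1 (0.189) or 3 (0.0745). The mean of the 4 comparisons for OAS1 was 0.61 ± 0.18 (adjusted p = 0.0278 with the block, 0.609 without). That mean was called in 9 of 18 fits that left out a library. OAS2 and OAS3 were not called. OAS2 was at 0.116, 0.215 and 0.273 RPKM with siNC in T24 and 0.401, 0.169 and 0.736 with siACAT1-1, where replicates 1 and 3 lay above all controls and replicate 2 did not. OAS3, the family member with the highest level in UM-UC-3, had a blocked log2 fold change of -0.54 ± 0.15 with siACAT1-1 there (adjusted p = 0.0584).

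ISG15 is joined to proteins by the ligase chain that includes the E2 enzyme UBE2L6 and the E3 enzyme HERC5, and is taken off again by USP18. ISG15 was at 5.04, 4.6 and 3.37 RPKM with siNC in UM-UC-3, 5.34, 7.64 and 5.85 with siACAT1-1 and 10.3, 10.4 and 11.1 with siACAT1-2. All 3 groups were separate, with siACAT1-2 highest. In T24 it was at 31.2, 43.3 and 35.7 RPKM with siNC, 38.9, 34.0 and 56.6 with siACAT1-1 and 76.3, 40.4 and 67.6 with siACAT1-2, and there replicate 2 of both siRNAs was below its own control. ISG15 rose with siACAT1-2 in UM-UC-3 (log2 fold change 1.26 ± 0.23, adjusted p = 0.00676 with the block, 0.231 without) and in T24 (0.72 ± 0.20, 0.0304 and 0.327). Neither call held in each fit: the first was lost without UM-UC-3 siNC replicate 2 (0.0707) or 3 (0.0732) or siACAT1-2 replicate 3 (0.052), and the T24 call without siNC replicate 1 (0.268) or 3 (0.258) or siACAT1-2 replicate 1 (0.29) or 3 (0.0965), with its log2 fold change between 0.42 and 1.05 over those fits. The mean over the 4 comparisons, 0.68 ± 0.14 (0.00294 with the block, 0.106 without), held in each.

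UBE2L6 followed the opposite order in T24. Its levels there were 1.84, 2.7 and 2.69 RPKM with siNC, 5.73, 3.61 and 7.74 with siACAT1-1 and 4.92, 3.33 and 4.21 with siACAT1-2. Every knockdown library exceeded every control library, and siACAT1-1 was the higher siRNA in each replicate number, although the difference between the siRNAs was not called. It rose with siACAT1-1 (log2 fold change 1.20 ± 0.21, adjusted p = 0.00091 with the block, 0.0645 without), a call kept in each fit that left out a library, and with siACAT1-2 (0.80 ± 0.21, 0.0223 and 0.3), lost without siNC replicate 1 (0.245) or 3 (0.155) or siACAT1-2 replicate 1 (0.175). In UM-UC-3 the levels were 2.26, 3.15 and 3.3 RPKM with siNC, 2.55, 2.34 and 2.75 with siACAT1-1 and 4.94, 4.49 and 5.3 with siACAT1-2. The siACAT1-2 libraries stood above the rest, but the comparison with siNC was not called (0.72 ± 0.21, adjusted p = 0.0876 with the block). The mean of the 4 comparisons was 0.64 ± 0.13 (0.0034 with the block, 0.124 without). HERC5, HERC6 and USP18 were not called, and HERC5 lay between 1.47 and 2.78 RPKM in all 18 libraries.

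**Figure D4:**
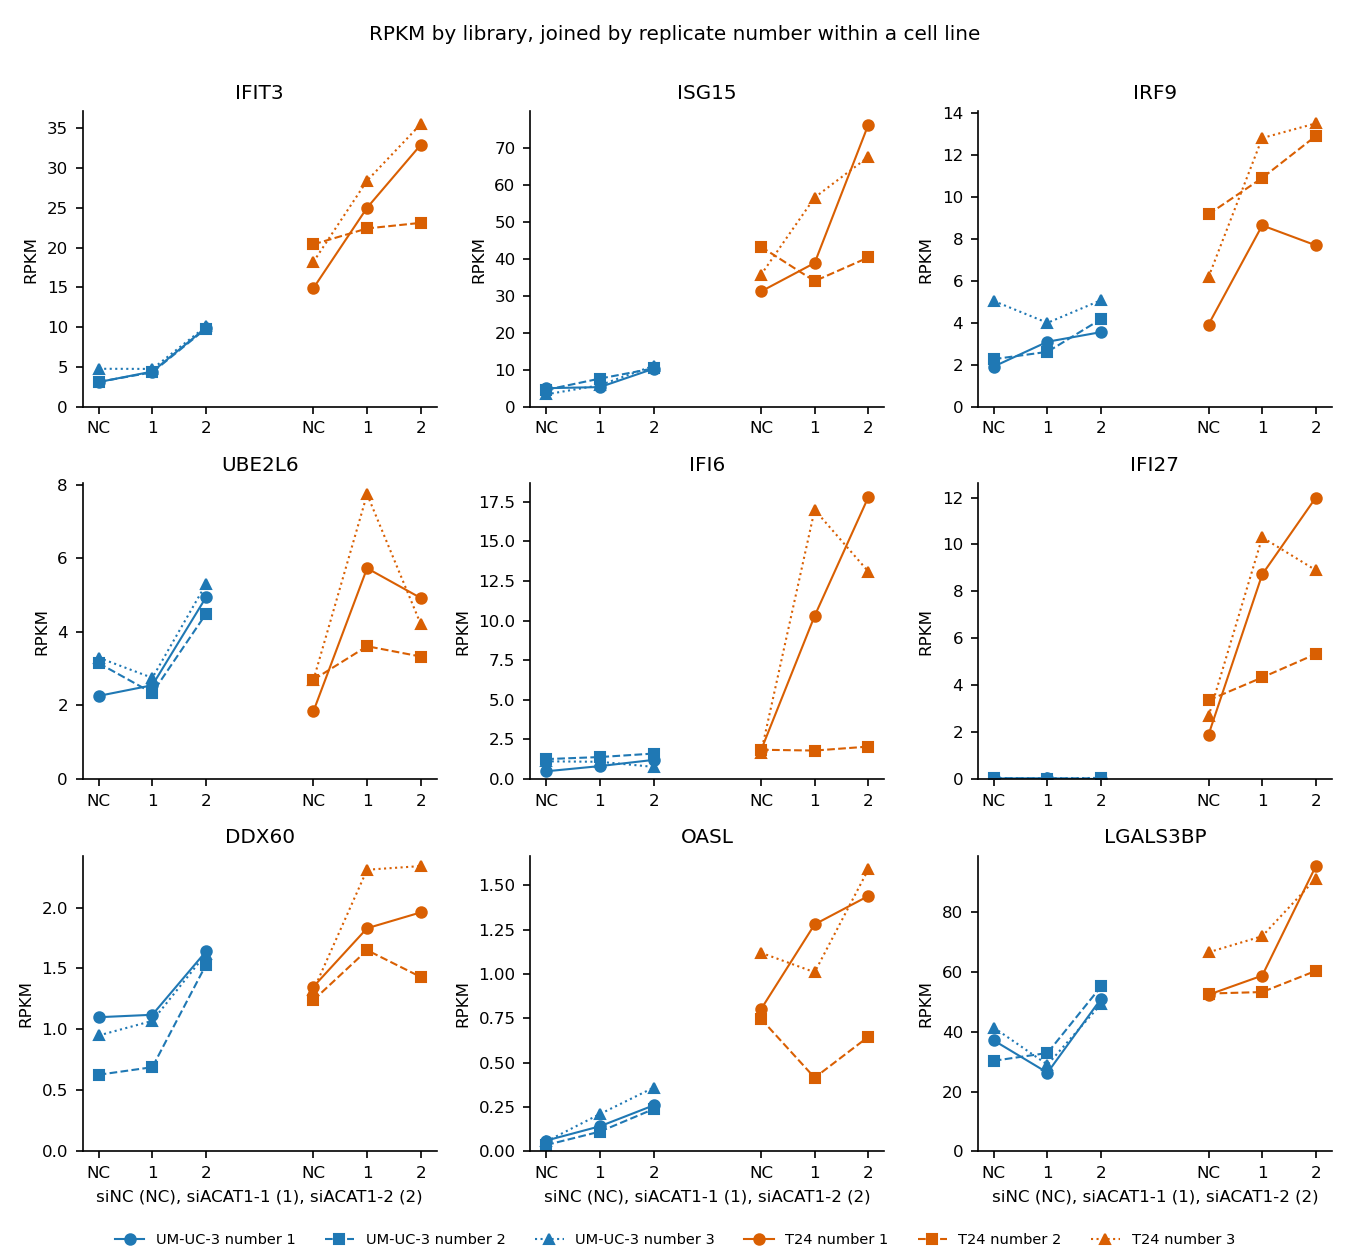
Level of 9 members in RPKM, library by library, with lines joining the libraries of 1 replicate number across siNC, siACAT1-1 and siACAT1-2 in each cell line. The line of T24 replicate 2 is flat for IFI6, while IRF9 rises in each T24 replicate number from different starting levels.

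Of the 5 IFI-named genes, IFI6 and IFI27 rose in T24 with the block, IFI44 rose in UM-UC-3, and IFI35 and IFI44L were not called against siNC. IFI6, a small mitochondrial and endoplasmic reticulum protein that counters apoptosis and flavivirus replication, was at 1.81, 1.85 and 1.65 RPKM with siNC, 10.3, 1.8 and 17.0 with siACAT1-1 and 17.8, 2.05 and 13.1 with siACAT1-2. Replicates 1 and 3 were high with both siRNAs, and replicate 2 stayed at the control level with both. The log2 fold changes were 2.07 ± 0.45 with siACAT1-1 (adjusted p = 0.00431 with the block, 0.168 without) and 2.28 ± 0.45 with siACAT1-2 (0.00296 and 0.185). They were lost without siNC replicate 1 (0.0728 and 0.0758) or 3 (0.102 and 0.0632) and, for siACAT1-1, without its replicate 3 (0.0674). In UM-UC-3 IFI6 was at 0.491, 1.26 and 1.12 RPKM with siNC and between 0.77 and 1.61 under knockdown, which overlapped. The difference in effect between the cell lines was not called (-1.93 ± 0.62 with the block, adjusted p = 0.266).

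IFI27 had 8.72, 4.33 and 10.3 RPKM with siACAT1-1 and 12, 5.33 and 8.9 with siACAT1-2 in T24, against 1.89, 3.36 and 2.67 with siNC. Here every knockdown library was above every control library, replicate 2 least so. IFI27 rose with siACAT1-1 (log2 fold change 1.47 ± 0.27, adjusted p = 0.00157 with the block, 0.102 without) and siACAT1-2 (1.66 ± 0.27, 0.0008 and 0.074), and both blocked calls were kept in each fit that left out a library. IFI44, a cytoplasmic protein of uncertain function, was at 2.75, 2.8 and 2.54 RPKM with siNC in UM-UC-3, 3.74, 4.38 and 2.85 with siACAT1-1 and 5.07, 5.84 and 5.2 with siACAT1-2. These groups did not overlap, and IFI44 rose with siACAT1-2 (0.95 ± 0.17, 0.00664 with the block, 0.737 without), which was lost without siNC replicate 2 (0.0837) or siACAT1-2 replicate 3 (0.0523). In T24 it was at 17.3, 15.3 and 13.3 RPKM with siNC, 19.1, 11.4 and 16.3 with siACAT1-1 and 21.8, 11.6 and 21.9 with siACAT1-2, with replicate 2 lowest in both knockdown groups. IFI44L was at 0.465, 0.0712 and 0.66 RPKM with siACAT1-1 in T24 against 0.122, 0.146 and 0.202 with siNC, with replicate 2 again below its control.

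DDX60, a helicase that promotes RIG-I signalling, rose in 3 of the 4 comparisons with the block, which of the members was true only of DDX60 and IFIT3. Its levels in UM-UC-3 were 1.1, 0.628 and 0.95 RPKM with siNC, 1.12, 0.69 and 1.07 with siACAT1-1 and 1.64, 1.53 and 1.62 with siACAT1-2. In T24 they were 1.35, 1.24 and 1.32 RPKM with siNC, 1.83, 1.65 and 2.31 with siACAT1-1 and 1.96, 1.43 and 2.34 with siACAT1-2. Only siACAT1-1 in UM-UC-3 overlapped its control. The blocked log2 fold changes were 0.83 ± 0.16 with siACAT1-2 in UM-UC-3 (adjusted p = 0.0112, without the block 0.804), 0.56 ± 0.16 with siACAT1-1 in T24 (0.0236 and 0.363) and 0.55 ± 0.16 with siACAT1-2 in T24 (0.0378 and 0.499). These 3 calls were kept in 15, 13 and 10 of 18 fits that left out a library, with the highest adjusted p at 0.146 without UM-UC-3 siACAT1-2 replicate 2, and at 0.245 and 0.337 without T24 siNC replicate 3. The mean of the 4, 0.51 ± 0.10 (0.00258 with the block, 0.209 without), was kept in all 18.

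SAMD9, a cytosolic restriction factor of poxviruses, was at 1.04, 1.22 and 0.822 RPKM with siNC in UM-UC-3, 1.52, 1.56 and 1.19 with siACAT1-1 and 1.85, 1.39 and 1.6 with siACAT1-2. In T24 it was at 2.23, 2.97 and 2.39 RPKM with siNC, 2.99, 3.22 and 3.65 with siACAT1-1 and 2.78, 2.96 and 3.89 with siACAT1-2. The siACAT1-2 libraries of UM-UC-3 and the siACAT1-1 libraries of T24 lay above all controls of their cell line, and the other knockdown groups overlapped them. No single comparison was called, but the mean of the 4 rose with the block (log2 fold change 0.46 ± 0.097, adjusted p = 0.00412, without the block 0.152) and held in each fit that left out a library. Its neighbour SAMD9L rose in T24 with siACAT1-1 (0.69 ± 0.21, 0.0322 with the block) and siACAT1-2 (0.78 ± 0.21, 0.0235), each lost without siNC replicate 1 (0.255 and 0.192) or 3 (0.148 and 0.133), without replicate 3 of the siRNA (0.0595 and 0.173), and without siACAT1-1 replicate 1 (0.351) or siACAT1-2 replicate 2 (0.0655) for the respective siRNA. RSAD2, known as viperin, was at 0 counts in the 3 control libraries of UM-UC-3 and did not exceed 0.203 RPKM anywhere, so its fold change is not given, although it is counted among the 20 members called in the mean with the block. ISG20, an exonuclease, and MX2 were not called against siNC. CMPK2, which shares its locus with RSAD2, had 0, 0 and 2 counts with siACAT1-1 in UM-UC-3.

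MX1, a dynamin-like GTPase against influenza viruses, was at 0.324, 0.445 and 0.505 RPKM with siNC in T24, 0.935, 0.531 and 1.06 with siACAT1-1 and 0.779, 0.412 and 1.08 with siACAT1-2. Replicates 1 and 3 lay above all controls with both siRNAs, and replicate 2 was lower than these. MX1 rose with siACAT1-1 (log2 fold change 0.94 ± 0.28, adjusted p = 0.0304 with the block, 0.374 without), lost without siNC replicate 1 (0.235) or 3 (0.207) or siACAT1-1 replicate 1 (0.187) or 3 (0.109). In UM-UC-3 it did not exceed 0.155 RPKM, and the mean of the 4 comparisons was 0.94 ± 0.24 (0.0134 with the block, 0.243 without). That mean was lost without siNC replicate 2 (0.0616) or 3 (0.0843) of UM-UC-3 or siNC replicate 1 (0.0568) or 3 (0.0534) of T24. IFITM3 was at 30.6, 10.1 and 39.7 RPKM with siACAT1-1 and 22.4, 9.98 and 26.2 with siACAT1-2 in T24, again with replicate 2 at the level of siNC. It rose with siACAT1-1 (0.95 ± 0.19, 0.0025 with the block, 0.267 without), lost only without siNC replicate 3 (0.0551). The mean of the 4 comparisons for IFITM3 was 0.35 ± 0.11 (adjusted p = 0.0494 with the block, 0.563 without). That mean was called in only 4 of 18 fits that left out a library. IFITM1, IFITM2 and BST2 were not called, and IFITM1 and IFITM2 share 351 exonic bases.

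PARP9 and its partner DTX3L form a ubiquitin ligase complex, and PARP14 is a mono-ADP-ribosyltransferase of the same region of chromosome 3. PARP9 was at 3.19, 3.24 and 3.58 RPKM with siNC in T24 and 5.85, 3.33 and 6.32 with siACAT1-1, again with replicate 2 near its control. PARP9 rose there with the block (log2 fold change 0.60 ± 0.15, adjusted p = 0.00962, without the block 0.269), as did PARP14 (0.56 ± 0.15, 0.0152 and 0.251). Both were lost without siNC replicate 1 (0.0707 and 0.097) or 3 (0.134 and 0.127) or siACAT1-1 replicate 1 (0.154 and 0.272) or 3 (0.0812 and 0.0615). The mean of the 4 comparisons for PARP14 was 0.28 ± 0.091 (adjusted p = 0.049 with the block, 0.384 without). That mean was called in only 3 of 18 fits that left out a library. DTX3L, which shares the promoter printed above with PARP9, was at 3.14, 4.83 and 3.99 RPKM with siNC and 3.88, 4.81 and 3.72 with siACAT1-1 and was not called. The exons of PARP9 and DTX3L overlap by 217 bases on opposite strands.

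SP100 and SP110 are proteins of nuclear bodies. SP100 was at 8.87, 15.9 and 10.2 RPKM with siNC in T24, 22.8, 19.9 and 22.4 with siACAT1-1 and 11.2, 16.2 and 13.0 with siACAT1-2. The siACAT1-1 libraries lay above all others, and siACAT1-2 overlapped siNC. SP100 rose with siACAT1-1 (log2 fold change 0.96 ± 0.14, adjusted p = 0.00022 with the block, 0.0645 without), and this held in each fit that left out a library. In UM-UC-3 SP100 was at 5.74, 4.7 and 6.55 RPKM with siNC, between 5.65 and 7.56 with siACAT1-1 and between 5.09 and 7.15 with siACAT1-2, and was not called. SP110 was at 1.1, 0.967 and 1.02 RPKM with siNC in UM-UC-3, 1.51, 1.25 and 1.15 with siACAT1-1 and 1.54, 1.68 and 1.85 with siACAT1-2, without overlap. It rose with siACAT1-2 (0.67 ± 0.16, 0.0394 with the block, 0.737 without), kept in 12 of 18 fits that left out a library, with the highest adjusted p of 0.205 without siNC replicate 2. In T24 SP110 was at 5.18, 8.98 and 4.91 RPKM with siNC, 7.83, 8.65 and 7.26 with siACAT1-1 and 8.76, 8.32 and 8.04 with siACAT1-2, with replicate 2 below its control for both siRNAs. The mean of the 4 comparisons was 0.46 ± 0.096 for SP110 (0.00404 with the block, 0.152 without). A gene on the same strand covers 24.3% of its exon length.

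XAF1, a pro-apoptotic antagonist of XIAP, was among the lowest members. It was at 0.0439, 0.0322 and 0.0431 RPKM with siNC in T24, 0.134, 0.0401 and 0.3 with siACAT1-1 and 0.104, 0.0644 and 0.2 with siACAT1-2. In UM-UC-3 it was at 0.0321, 0.0471 and 0.117 RPKM with siNC, 0.139, 0.0591 and 0.122 with siACAT1-1 and 0.0741, 0.158 and 0.345 with siACAT1-2. Every knockdown library was above the siNC library of its replicate number. XAF1 rose with siACAT1-1 in T24 (log2 fold change 1.78 ± 0.51, adjusted p = 0.0255 with the block, 0.289 without), lost without siNC replicate 1 (0.0826) or 3 (0.286) or siACAT1-1 replicate 1 (0.106) or 3 (0.228), and in the mean (1.40 ± 0.32, 0.00606 and 0.245), lost without T24 siNC replicate 3 (0.0635). An antisense gene covers 38.32% of its exon length. LGALS3BP rose with siACAT1-2 in T24, from 52.4, 52.8 and 66.6 RPKM to 95.5, 60.4 and 91.3 (0.53 ± 0.14, 0.0198 with the block, 0.39 without), with replicate 2 inside the control range, a call lost without siNC replicate 1 (0.188) or 3 (0.123) or siACAT1-2 replicate 1 (0.194) or 3 (0.0654). EPSTI1, PLSCR1 and TDRD7 were not called.

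By replicate number, T24 replicates 1 and 3 differed from replicate 2. Between 38 and 40 of the 43 members were above the siNC library of their number in replicates 1 and 3 with either siRNA, against 22 of 43 in replicate 2 with each of the siRNAs. For UM-UC-3, 34, 34 and 35 members were above siNC in replicates 1, 2 and 3 with siACAT1-2, and 27, 31 and 19 with siACAT1-1. Over these 12 pairs, between 46.9% and 52.7% of all genes tested were above siNC. IFIT3 and XAF1 were above siNC in all 12 pairs, as were 1.62% of all genes tested, and 19 members were in at least 10 pairs, as were 10.5% of all genes. The high CD68 of T24 replicate 2 moved with this pattern, and its part in the result was not tested. Without UM-UC-3 replicate 3 and T24 replicate 2, the blocked model called 21 members with siACAT1-1 and 15 with siACAT1-2 in T24, and the model without the block called 10 and 9. Of the libraries left out, UM-UC-3 siNC replicate 3 and the T24 knockdown libraries of replicate 2 stood apart in the members themselves. These counts are therefore no independent support. The share of all genes called in these fits is not given.

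The siRNAs were compared with each other within each cell line. They differ in sequence and target the same transcript. With the block, ACAT1 was lower with siACAT1-2 than with siACAT1-1 in both cell lines. The blocked log2 difference was -0.54 ± 0.16 in UM-UC-3 (adjusted p = 0.0348, without the block 0.465) and -0.71 ± 0.17 in T24 (0.00932, without the block 0.139). Without the block 0 members differed in either cell line, where 0.0496% and 0.968% of all genes did, while 10 members in UM-UC-3 and 5 in T24 had an unadjusted p under 0.05 and DESeq2 called 2 in each. For the unadjusted counts and those of DESeq2 the share of all genes is again not given, so they have no background here. With the block, 9 members were higher with siACAT1-2 than with siACAT1-1 in UM-UC-3, against 3.63% of all genes, and 0 were lower. In T24, 2 were higher, against 7.85% of all genes, and 3 were lower, against 6.83%.

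In UM-UC-3 the members higher with siACAT1-2 were IFIT3 (log2 difference 1.11 ± 0.16, adjusted p = 0.00042 with the block, 0.0557 without), IFIT1 (1.24 ± 0.21, 0.0014), LGALS3BP (0.78 ± 0.14, 0.0021), SAMD9L, OAS1, IFIT2, DDX60, UBE2L6 and ISG15. IFIT3, IFIT1 and LGALS3BP kept the call in each fit that left out a library. The ISG15 call (0.73 ± 0.22, 0.0494) held in 10 of 18, with the highest adjusted p of 0.292 without siACAT1-1 replicate 1. LGALS3BP was at 26.3, 32.9 and 29.0 RPKM with siACAT1-1 and 51.1, 55.2 and 49.3 with siACAT1-2, without overlap. The siNC libraries, at 37.1, 30.3 and 41.4 RPKM, overlapped those of siACAT1-1 and lay below those of siACAT1-2. OAS1 was at 0.158, 0.145 and 0.095 RPKM with siACAT1-1 and 0.368, 0.282 and 0.468 with siACAT1-2 (1.42 ± 0.29, 0.00618), lost without siACAT1-1 replicate 3 (0.0856). COL3A1, a fibrillar collagen and no member, moved in the same direction (1.06 ± 0.20, 0.00373 with the block, 0.14 without), and the summed level of the 6 fibroblast markers was 2.81 to 3.09 RPKM with siACAT1-1, 4.2 to 5.13 with siACAT1-2 and 2.94 to 3.42 with siNC.

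In T24 the order depended on the gene. SP100 (log2 difference -0.72 ± 0.14, adjusted p = 0.0016 with the block, 0.106 without), IFIT5 (-0.47 ± 0.12, 0.0118 and 0.175) and PARP14 (-0.53 ± 0.15, 0.0186 and 0.223) were lower with siACAT1-2 than with siACAT1-1. LGALS3BP (0.42 ± 0.14, 0.0425 and 0.364) and IFI35 (1.02 ± 0.24, 0.0071 and 0.234) were higher. IFI35, which was at 1.65, 7.34 and 4.31 RPKM with siACAT1-1 and 7.29, 8.89 and 8.33 with siACAT1-2, differed most in replicate 1, and its call was lost without siACAT1-1 replicate 1 (0.0902) or siACAT1-2 replicate 1 (0.0773). Of the 5, SP100 kept its call in each fit that left out a library. The LGALS3BP call held in 9 of 18, with the highest adjusted p of 0.367 without siACAT1-2 replicate 1, IFIT5 in 14, with 0.0821 without siACAT1-2 replicate 1, and PARP14 in 15, with 0.222 without siACAT1-1 replicate 1. The other members were not called between the siRNAs in T24, and the median log2 difference over the 43 was -0.001 without the block, against 0.365 in UM-UC-3.

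**Figure D5:**
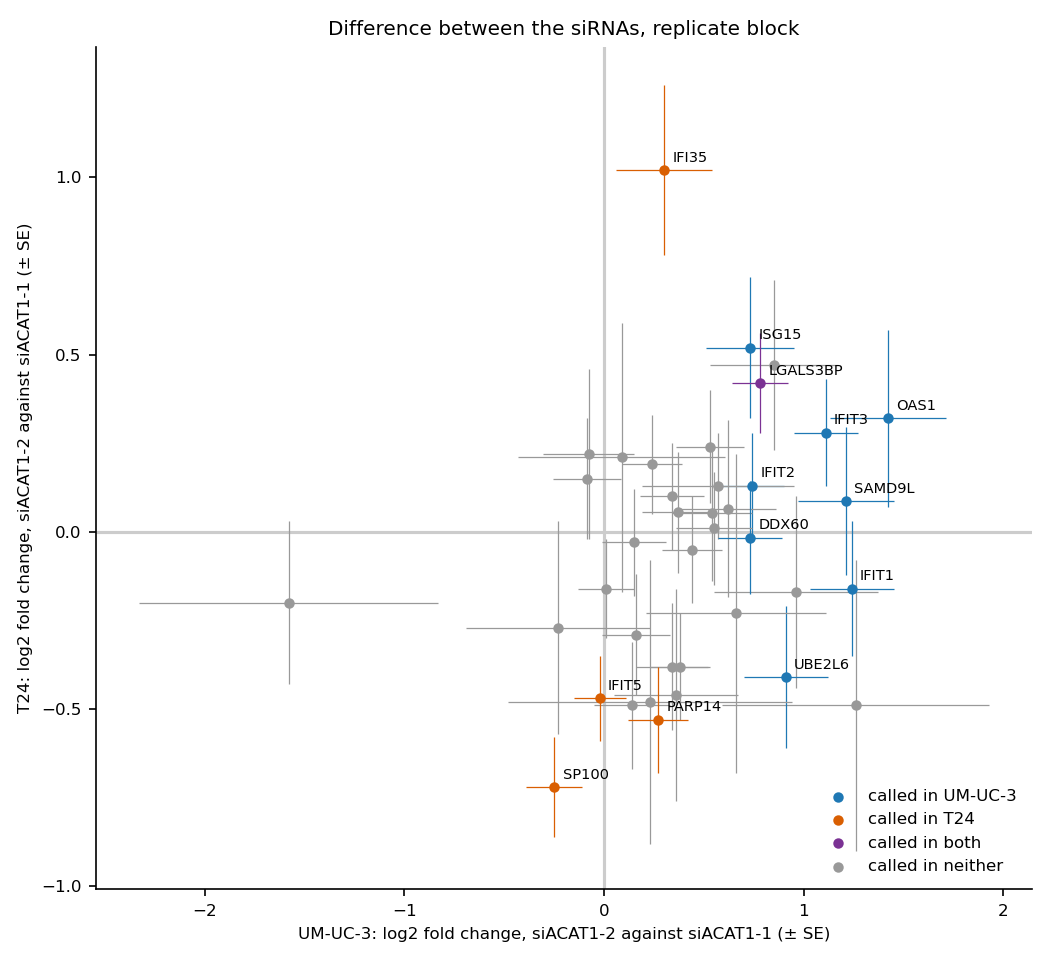
Blocked log2 difference between siACAT1-2 and siACAT1-1 of 39 members, in UM-UC-3 on the x axis and in T24 on the y axis, with bars of 1 SE. Most members lie to the right of 0 on the x axis, with IFIT1, IFIT3, SAMD9L and OAS1 among those beyond 1, while on the y axis they lie on both sides of 0, SP100 among the lowest. IFITM1, MX2, IFI27 and RSAD2, whose SE was over 0.8, are left out.

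Whether the knockdown effect of a member differed between the cell lines was tested as the mean of both siRNAs in UM-UC-3 minus that in T24. No member was called with or without the block, where 0.104% and 0% of all genes were, and 4 members had an unadjusted p under 0.05 without the block. A call in 1 cell line and not in the other is therefore not shown to be a difference between them. The median of these differences over the 43 members was -0.10 on the log2 scale, and -0.04 with the block. For the count at an unadjusted p the share of all genes is not given.

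Other genes of the pathway came from a list of 40 symbols. RIGI, CGAS and STING1, second names of genes that were found, and IFNB1, IFNG and IFNL2 were not found. Of the list, 34 were found and 29 tested. Against siNC, 0 were called without the block, with 1 and 4 at an unadjusted p under 0.05 in UM-UC-3 (siACAT1-1, then siACAT1-2) and 4 and 5 in T24. With the block 0 and 1 of the 29 rose in UM-UC-3, against 1.96% and 0.635% of all genes, and 6 and 4 rose in T24, against 6.59% and 4.55%, while 0 fell. Between the siRNAs in T24, 0 were called without the block, with 5 at an unadjusted p under 0.05, and with the block 4 were higher with siACAT1-2, against 7.85% of all genes, and 3 lower, against 6.83%. The share of all genes is not given for the pathway counts at an unadjusted p, so these cannot be set against a background.

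Upstream of the STATs, the receptor chain IFNAR2 (log2 fold change 0.83 ± 0.15, adjusted p = 0.00156 with the block) and the kinase TBK1, which phosphorylates IRF3 (0.82 ± 0.13, 0.00042), rose with siACAT1-1 in T24. SOCS3, a feedback inhibitor of JAK kinases, rose in T24 with siACAT1-1 (0.50 ± 0.16, 0.0421) and siACAT1-2 (0.84 ± 0.16, 0.00223). STAT3, IFNGR1 and IFNGR2 rose with siACAT1-1, and IKBKE, TICAM1 and IL10RB with siACAT1-2, in T24, and IRF3 rose with siACAT1-2 in UM-UC-3. None of these was called without the block. Of 6 interferon genes found, only IFNE passed the filter on low counts, and it was not called against siNC, with 2 to 71 counts per library.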

How the data were processed

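Total RNA of 18 transfected cultures was sequenced as stranded libraries. The authors used Trimmomatic 0.36 to filter reads, STAR 2.5.3 to map against GRCh38 and featureCounts of Subread 1.5.1 to count on gene exons (per the paper's methods and the submitters' processing notes), and deposited the count of each gene without normalization. The authors also deposited RPKM values. They equalled the count divided by gene length and by the library's counted reads within an absolute difference of 4.4e-06 RPKM. The annotation release, the strand setting and the use of the kit's molecular identifiers are not given in the sources used here.

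The quasi-likelihood test of edgeR 4.0.16 (R 4.3.3) was run on counts, after filterByExpr and TMM normalization, with all 18 libraries in a model of 6 group means, and p values were Benjamini-Hochberg adjusted over the 20144 genes tested, with a call at an adjusted p under 0.05. Contrasts were each siRNA against siNC, their mean, the knockdown effect in UM-UC-3 minus T24, siACAT1-2 against siACAT1-1, and the siNC groups of the cell lines. Levels are deposited RPKM. The members and all gene lists were chosen with earlier results of these data known, so no pattern seen earlier is independent support.

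Deviations from group means correlated in each pair of libraries with the same replicate number, with r from 0.115 to 0.576 (median 0.433) in UM-UC-3 and from 0.356 to 0.686 (median 0.524) in T24, against -0.545 to 0.269 and -0.567 to 0.210 for other numbers. The numbers were taken as pairs from these values, across genes, since the sources do not say what a number marks, and the paired alternative added the number, nested in cell line, to the same model as a block. It could not be fitted for siNC between the cell lines. The series states independent experiments. Without the block, p values measure the spread between these within groups. With the block, they measure the spread left after the shared deviation of each replicate number is removed.

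Values were given library by library for the 14 called members with the smallest blocked p of the mean of the 4 comparisons. Further members were named for the highest level with siNC (5 per cell line), the largest called differences between the siNC groups (8), the largest fold changes in each comparison (5, with at least 10 counts on average per group), as STAT2 and IRF9, or for at most 3 counts in all libraries of a group. Other named members, and the pathway genes named, were chosen after their values were seen. Some genes of the pathway list are not reported here and were left out of its counts. Alternatives were the replicate block, RLE size factors, DESeq2 1.42.0, no filter, a filter at a mean CPM of 1, limma 3.58.1 on log2(RPKM + 0.1) and log2(RPKM + 1), each cell line alone, leaving out each library, and leaving out UM-UC-3 replicate 3 and T24 replicate 2. Leaving out each library with the block was added after seeing the data. Leaving out a library left 2 in its group. The edgeR fit, with and without the block, was tested on simulated counts for the mean of the 4 comparisons. The other steps were not tested on simulated data. Tables and plots were made in Python 3.11.15 with pandas 2.3.3, numpy 2.4.6 and matplotlib 3.10.9. Promoter sequences are from RefSeq, GRCh38.p14.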

Additional observations from a re-analysis of the deposited data

Results flagged for a closer look

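OAS1 with siACAT1-1 moved in opposite directions in the cell lines in each replicate number: it was below siNC in all 3 pairs of UM-UC-3 libraries (0.158, 0.145 and 0.095 RPKM against 0.172, 0.164 and 0.262) and above siNC in all 3 pairs of T24 libraries (0.612, 0.174 and 0.739 RPKM against 0.282, 0.108 and 0.433). OAS1 had few reads, 933 over all 18 libraries. The fall in UM-UC-3 was not called (edgeR adjusted p = 0.343 with the replicate block, 0.995 without). The rise in T24 was called only with the block (0.0314, without it 0.614). The share of all genes with such a pattern is not given. The difference for siACAT1-1 alone was not tested. Over both siRNAs the knockdown effect in UM-UC-3 minus T24 was -0.97 on the log2 scale without the replicate block (edgeR adjusted p = 1) and -0.92 with it (0.387), which was not called.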

How the results depend on the processing

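The number of members called depended on whether the replicate number was a block. With the replicate block (pairing by number) the counts were 1 and 8 for siACAT1-1 and siACAT1-2 in UM-UC-3, 15 and 10 in T24, 20 in the mean, 9 and 5 between the siRNAs in UM-UC-3 and T24, against 0, 1, 0, 0, 1, 0 and 0 without it. DESeq2 gave 4 for siACAT1-2 in UM-UC-3, 4 and 3 in T24, 7 in the mean and 2 and 2 between the siRNAs. Without a filter on low counts there were 5, 6, 2 and 10 in the same comparisons against siNC and the mean, 1 for the difference between cell lines and 3 between the siRNAs in UM-UC-3. limma on log2(RPKM + 1) gave 1 for siACAT1-2 in T24, and 1 between the siRNAs in UM-UC-3, as did limma on log2(RPKM + 0.1) and the filter at a CPM of 1. Without UM-UC-3 replicate 3 and T24 replicate 2 the counts were 10 and 9 in T24, 11 in the mean and 1 and 2 between the siRNAs, and with the replicate block 8, 21, 15, 22, 2 (difference between cell lines), 6 and 10. Here the fit also had fewer libraries, and some of the libraries left out stood apart in the members themselves. The cause was not tested for any of these changes. The share of all genes is not given for the settings other than the replicate block, nor for counts at an unadjusted p.

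Leaving out 1 library, the counts ranged without the block from 0 to 0, 0 to 1, 0 to 6 and 0 to 3 for the 4 comparisons with siNC in the order above, 0 to 4 for the mean, 0 to 0 between the cell lines' effects, 0 to 1 for each siRNA difference and 22 to 27 for the siNC groups. With the replicate block they ranged from 0 to 2, 3 to 13, 4 to 21, 1 to 14, 11 to 22, 0 to 2, 4 to 11 and 1 to 9. The T24 counts of 6 and 3 came without siACAT1-1 replicate 2 and siACAT1-2 replicate 2. The share of all genes called in each leave-out fit is not given, so these ranges cannot be set against a background.

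Median log2 fold changes moved by more than the spread in few settings: with limma on log2(RPKM + 1) to 0.194 for siACAT1-2 in UM-UC-3, 0.174 for the mean, 0.198 between the siRNAs in UM-UC-3 and -0.522 for the siNC groups, and without the replicates that stood apart to 0.651 for siACAT1-2 in UM-UC-3 (0.645 with the replicate block). Leaving out 1 library, they ranged from 0.005 to 0.202, 0.412 to 0.737, 0.221 to 0.537, 0.274 to 0.496, 0.315 to 0.432 (mean), -0.103 to 0.016 (cell lines), 0.304 to 0.496 and -0.188 to 0.123 (siRNAs) and -1.238 to -1.011 (siNC), and with the replicate block from -0.026 to 0.145, 0.443 to 0.596, 0.221 to 0.614, 0.203 to 0.523, 0.312 to 0.532, -0.142 to 0.06, 0.377 to 0.462 and -0.113 to 0.094. The lowest blocked median for siACAT1-1 in UM-UC-3 came without siNC replicate 1.

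Of 94 values of single genes called in either model, 0 reversed in any setting. With 3 libraries per group, members with few counts in UM-UC-3 (OASL, MX1, XAF1, RSAD2, IFI27) are measured with wide errors.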

Other observations

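Of 12 sensors of foreign nucleic acid and their adaptors, 4 were higher with siACAT1-2 than with siACAT1-1 in UM-UC-3 with the replicate block (IFIH1, TMEM173, IRF3 and IKBKE), against 3.63% of all genes, and 0 without it, with 3 at an unadjusted p under 0.05. For the unadjusted count the share of all genes is not given. IFIH1, the cytosolic sensor MDA5 of long double-stranded RNA, was at 0.266, 0.187 and 0.326 RPKM with siACAT1-1 and 0.727, 0.555 and 0.666 with siACAT1-2, without overlap, and at 0.438, 0.275 and 0.343 RPKM with siNC. The log2 difference between the siRNAs was 1.29 ± 0.25 (edgeR adjusted p = 0.00436 with the block, 0.22 without). TMEM173, the adaptor STING, differed by 0.90 ± 0.23 (0.0219 with the block, 0.317 without) and IRF3, a transcription factor downstream of both, by 0.73 ± 0.13 (0.00234 and 0.259), both higher with siACAT1-2.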
